A study of Mus musculus with 2 samples.

Results

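The cells described here are the fibroblasts of murine back skin, 1100 of the 8899 kept barcodes of the skin library and of 13598 kept barcodes in the 2 libraries of the series. They were chosen by their own counts of unique molecular identifiers (UMIs, 1 per captured transcript). A barcode was kept if no more than 10% of its UMIs were mitochondrial and it reached 500 genes and 1000 UMIs. A member had UMIs in at least 3 of *Col1a1*, *Col1a2*, *Col3a1*, *Dcn*, *Lum* and *Pdgfra*, and at least 20 UMIs of these genes per 10000. It had UMIs in fewer than 3 of the contractile genes *Acta2*, *Tagln*, *Myh11*, *Rgs5* and *Myl9* and none of *Ptprc*, the common leukocyte antigen.

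Back skin biopsies and samples of preputial glands (PGs), sebaceous gland-like organs of male rodents, came from the same 3 animals, wild-type C57BL/6 males aged 52 weeks. The labels name no treatment, and all cells of a tissue went into 1 pooled droplet library. Skin and PG are thus represented by a single library of pooled animals, no test between tissues is possible, and library and tissue cannot be told apart. The skin library held 37675226 UMIs in 571670 barcodes and the PG library 26288071 UMIs in 309839 barcodes. No kept barcode, and so no fibroblast, was shared by the libraries (0 of each). The deposited barcode lists differ, with 6794880 entries for skin and 737280 for PG and 77142 on both, although 1 kit is named, and whether the chemistry of the libraries differed was not tested.

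Fibroblasts build and remodel the dermis: they secrete collagens, elastic fibre proteins and proteoglycans, the enzymes that fold, cut and cross-link them, and the proteases that take them apart. Those of the upper (papillary) dermis, of the lower (reticular) dermis, of the fascia and vessel surroundings (adventitial) and of the hair follicle (dermal papilla and sheath) are known to differ in the Wnt, BMP and matrix genes they use. Fibroblasts also release chemokines and complement proteins, which call and arm immune cells.

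Within the fibroblasts, *Ptgs2*, the prostaglandin synthase COX-2, the neutrophil chemokines *Cxcl1* and *Cxcl2*, the cytokine *Il6* and the hyaluronan synthase *Has1* led 1 subcluster of 132 cells, described further on. The promoters of *Cxcl1*, *Cxcl2* and *Il6* are shown because they hold the core of the NF-κB motif, searched on both strands as 3 G, 2 bases of any kind, 3 T and 2 C in a row. They are the 150 bases before each gene's start, from RefSeq on GRCm38.p6, all on the plus strand and written 5′ to 3′. They lie at chr5:90891095-90891244, chr5:90903749-90903898 and chr5:30012964-30013113. Matches are in capitals.
Cxcl1: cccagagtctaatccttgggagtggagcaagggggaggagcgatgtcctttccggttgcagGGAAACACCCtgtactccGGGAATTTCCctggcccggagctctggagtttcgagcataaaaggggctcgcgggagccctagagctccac
Cxcl2: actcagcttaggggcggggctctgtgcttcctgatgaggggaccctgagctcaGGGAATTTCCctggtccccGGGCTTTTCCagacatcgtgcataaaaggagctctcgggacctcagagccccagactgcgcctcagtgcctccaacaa
Il6: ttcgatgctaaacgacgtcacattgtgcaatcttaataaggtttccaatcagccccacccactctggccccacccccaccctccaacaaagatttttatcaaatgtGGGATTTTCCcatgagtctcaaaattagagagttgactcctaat

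The first bases of the matches lay 89 and 71 bases before the start of *Cxcl1*, 97 and 78 bases before that of *Cxcl2* and 44 bases before that of *Il6*. Of the 8 leading genes of the subcluster, 7 had a RefSeq promoter, and 3 of these held the letters, which were absent from this window of *Ptgs2*, *Has1*, *Ptx3* and *Gfpt2*. Among 27025 genes with a promoter, 447 (1.65%) held them in the same longer window. A match describes the sequence and is not evidence of a bound site.

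The rule passed through 2248 kept skin barcodes with a UMI of any of the 6 genes, 1135 with at least 3 of them and 1111 past the sum. It then lost 8 barcodes with contractile genes and 3 with *Ptprc*. The members were 12.4% of the kept skin barcodes (95% binomial interval 11.7 to 13.1, exact Clopper-Pearson). The same rule gave 638 PG fibroblasts, 13.6% of 4699 kept barcodes (12.6 to 14.6). Such intervals, here and throughout, cover counting error only and not the spread between mice or biopsies. Of the members, 146 had UMIs of 3 rule genes, 271 of 4, 453 of 5 and 230 of all 6. The lowest member had 20.4 UMIs of the rule genes per 10000 and the 10th lowest 24.2, while the highest barcode that failed on the sum alone had 19.5. Another 61 barcodes passed the sum with UMIs in only 2 of the genes.

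The members held 2435799 UMIs, with a median of 1882 UMIs, 947.5 genes and 1.65% mitochondrial UMIs per cell. The rule genes took a median of 187 UMIs per 10000, and from 50.3 to 779 between the 5th and the 95th percentile. Decorin (*Dcn*) was detected in 1077 members (97.9%), *Col1a2* in 1070 (97.3%), *Col3a1* in 958 (87.1%), *Col1a1* in 926 (84.2%), *Lum* in 703 (63.9%) and *Pdgfra*, the PDGF receptor that marks mesenchyme, in 433 (39.4%). Summed over cells, *Dcn* reached 9008 counts per 1000000 UMIs (CPM), *Col1a2* 7049, *Col1a1* 5689 and *Col3a1* 4415. CPM here is not divided by gene length, because a 3′ library gives 1 UMI per transcript whatever its length. These genes chose the cells, so their levels describe the rule and support nothing.

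**Figure D1:**
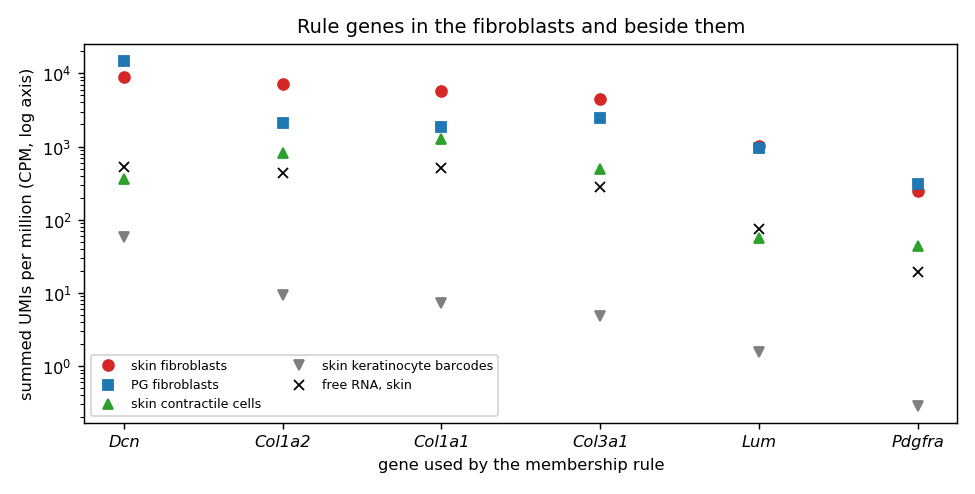
Level of each rule gene (x axis) in CPM on a log axis, as 1 point per group of cells of 1 library: skin fibroblasts, PG fibroblasts, contractile cells and keratinocyte barcodes of skin, and free RNA of the skin library. *Dcn* was at 9008 CPM in skin and 14617 CPM in PG fibroblasts, and all 6 genes were lowest in the keratinocyte barcodes.

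Markers of other cell types were checked in the members. The 5 contractile genes summed to 43.5 CPM, with *Myh11* at 0 UMIs and *Myl9* highest at 22.6 CPM. Against 14439 CPM in the 47 contractile cells of the same library, this was low, and the rule itself limits these genes. The 6 endothelial genes summed to 9.44 CPM, below the 42.8 CPM of free RNA (barcodes with 1 to 50 UMIs), and *Pecam1* had 3 UMIs. The 8 immune genes summed to 80.5 CPM against 409 CPM in free RNA, with *Ptprc* at 0 UMIs by the rule and *Cd74* highest at 46.4 CPM. The 6 melanocyte genes were at 147 CPM (free RNA 829) with *Dct* highest. The 6 adipocyte genes were at 39.8 CPM (310 in free RNA), with 4 of them at 0 UMIs and *Fabp4* highest. The 6 Schwann cell genes were at 31.6 CPM (20.5 in free RNA) with 2 of them at 0 UMIs and *Ncam1* highest. The 6 pericyte genes were at 53.0 CPM (44.6 in free RNA) and *Abcc9* was highest. The 6 sebocyte genes were at 519 CPM (344 in free RNA), with 2 of them at 0 UMIs and *Mgst1* highest. In PG fibroblasts the sebocyte genes were at 1995 CPM, beside 7070 CPM in the free RNA of the PG library.

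The 9 keratinocyte genes were all detected and summed to 3808 CPM, 28.9% of their 13174 CPM in free RNA and against 23612 CPM in keratinocyte barcodes, with *Krt15* highest at 825 CPM. They were unequally shared: without the 124 members (11.3%) that scored as doublet-like the sum was 1039 CPM, and without the keratin-led subcluster 4 and the immune-led subcluster 10 it was 540 CPM. The number of doublet-like barcodes in the whole skin library was set in advance, at 634 of those kept (7.12%), so it is not a measured rate. Subcluster 4 held 141 cells with a median of 3414 UMIs, and 114 of them (80.9%) were doublet-like. Keratin genes took 1.84% of its UMIs, and 8 of the 9 keratinocyte genes had a UMI in at least 10% of its thinned cells and stood at least 3-fold above the other members, among them *Krt14* at 2848 CPM against 65.0 CPM in the other members. The levels that follow are over all members unless said otherwise. Without subclusters 4 and 10, the sum of the adhesive glycoproteins was 12882 CPM in place of 11046, that of the proteases and inhibitors 12511 in place of 10727, that of the adventitial genes 7202 in place of 6166 and that of the complement genes 5479 in place of 4649 CPM. The origin of these cells was not tested.

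**Figure D2:**
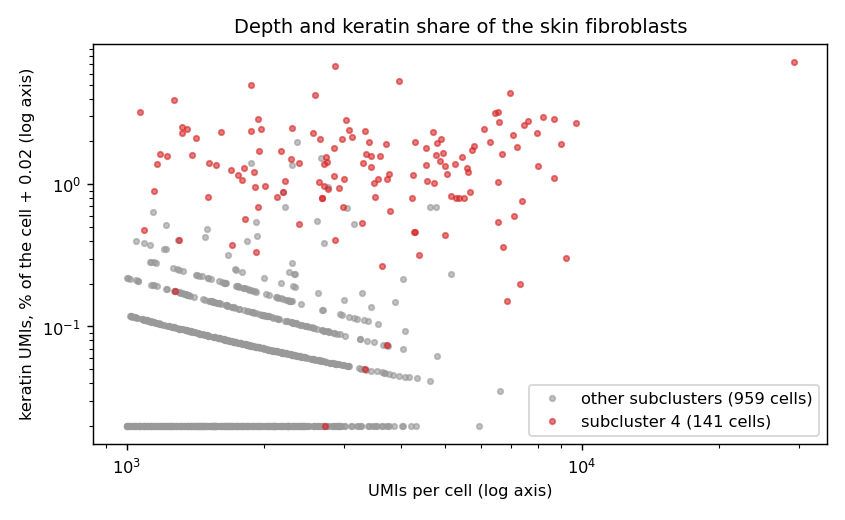
Keratin UMIs as a percentage of all UMIs of a cell, plus 0.02 (y axis, log), against UMIs per cell (x axis, log), with 1 point per skin fibroblast. The 141 cells of subcluster 4 sit mostly above the other 959 in keratin share and reach further right in depth.

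Single members also carried other programmes. The deepest member had 29257 UMIs, 3 times the next at 9724, belonged to subcluster 4 and held 67779 CPM of the 6 hair matrix genes (*Krt71*, *Krt25* and others). The hair matrix sum was 986 CPM with this cell and 174 CPM without it. Of the 1375 UMIs of the 6 skeletal muscle genes, 654 (47.6%) were in 1 cell with 3864 UMIs. The muscle sum was 564 CPM with it, 296 CPM without it, and 6740 CPM in free RNA, and *Mylpf* was the highest muscle gene. Haemoglobin *Hbb-bs*, a red blood cell transcript, was at 2503 CPM in members and 5666 CPM in free RNA.

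Beside the rule genes, several genes of secreted or matrix proteins were among the highest in skin fibroblasts. They were not alone: *Fth1* and *S100a6* ranked above *Dcn*, and *Tpt1*, *Fau*, *Tmsb4x* and *Eef1a1* were also among the highest. *Gsn*, the actin-severing gelsolin, was at 8843 CPM (95% Poisson interval 8725 to 8962). *Sparc*, a collagen-binding matricellular protein, was at 4174 CPM (4093 to 4256), *Clec3b* (tetranectin) at 2816 CPM (2749 to 2883), and *Timp2*, an inhibitor of matrix metalloproteinases, at 2602 CPM (2539 to 2667). The highest transcripts of all were the ribosomal RNA-overlapping *Gm42418* at 46033 CPM, which reached 138031 CPM in free RNA, and the nuclear RNA *Malat1* at 31382 CPM.

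To set levels beside a cell type that should lack the genes, cells were thinned to 1000 UMIs, which left out none. The median depth before thinning was 1882 UMIs in fibroblasts and 2565 UMIs in keratinocyte barcodes. *Timp2* then had a UMI in 84.2% of fibroblasts and 4.57% of keratinocyte barcodes. *Clec3b* was found in 84.1% and 0.70%, dermatopontin (*Dpt*), a small matrix protein, in 71.5% and 0.498%, and osteoglycin (*Ogn*) in 63.4% and 0.296%. *Gsn* was less particular, with 95.1% and 36.7%. Each of these shares was above that in keratinocyte barcodes.

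Against all other kept skin barcodes, which is a description because the members were chosen by correlated genes, the highest ratio among genes past 100 CPM was that of the secreted angiopoietin-like *Angptl1*, at 138 CPM and 0.601 CPM in the rest. *Myoc*, which encodes myocilin, was at 624 and 3.00 CPM and the sodium channel gene *Scn7a* at 115 and 0.601 CPM. Among matrix genes, *Ogn* was at 1439 CPM and at 7.85 CPM in the rest, *Dpt* at 1643 and 11.1 CPM, and *Mfap5*, a microfibril protein, at 961 and 5.49 CPM. The peptidase inhibitor *Pi16*, known from adventitial fibroblasts, stood at 1813 and 12.5 CPM. The collagen-degrading cathepsin *Ctsk* stood at 503 and 2.28 CPM. *C7*, a terminal complement component, was at 289 and 1.40 CPM.

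The collagens outside the rule, 24 genes with basement membrane, fibrillar, fibril-associated and beaded families among them, summed to 3407 CPM in skin fibroblasts and 227 CPM in other skin cells. *Col6a1*, a chain of the beaded type VI collagen, was highest at 545 CPM, ahead of *Col14a1* at 482, *Col6a3* at 471 and *Col5a2* at 412 CPM. Their intervals placed *Col6a1* (516 to 575 CPM) above *Col14a1* (454 to 510), whereas *Col14a1* and *Col6a3* (444 to 499) overlapped. The 23 collagen-processing genes summed to 4347 CPM, led by the procollagen proteinase enhancer *Pcolce2* at 842 CPM and the collagen chaperone *Serpinh1* at 640 CPM.

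The 21 adhesive glycoproteins summed to 11046 CPM, the highest sum among the gene group lists outside the rule, with *Sparc*, fibronectin (*Fn1*) at 1741 CPM and *Dpt* at their head. The 18 elastic fibre genes summed to 4056 CPM, led by *Mfap5*, *Fbln2* at 601 CPM and fibrillin-1 (*Fbn1*) at 465 CPM, and elastin itself (*Eln*) was at 197 CPM. The 10 small proteoglycans outside the rule summed to 2715 CPM, with *Ogn* far ahead of biglycan (*Bgn*, 396 CPM) and asporin (*Aspn*, 380 CPM).

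The 27 proteases and inhibitors summed to 10727 CPM, and the inhibitors *Timp2* and *Serping1* (1326 CPM) exceeded the gelatinase *Mmp2* (657 CPM). The IGF binding proteins summed to 6675 CPM. Of these, *Igfbp5* (2526 CPM) and *Igfbp6* (2079 CPM), which sequester insulin-like growth factors, were above *Igfbp7* at 950 CPM, while the growth factor *Igf1* itself was at 234 CPM. Among 15 complement genes, summed to 4649 CPM, *Serping1*, the C1 inhibitor, and *C3* (1170 CPM) led.

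Secreted Wnt pathway genes (23, summed to 1062 CPM) were mainly inhibitors of the frizzled-related family, *Sfrp2* at 285, *Sfrp1* at 172 and *Sfrp4* at 139 CPM, and the highest Wnt ligand was *Wnt5a* at 68.6 CPM. Of the 18 secreted BMP pathway genes (2065 CPM), *Fstl1*, a follistatin-like secreted protein, made up most at 1231 CPM. The mesenchymal transcription factors *Ebf1* (599 CPM) and *Prrx1* (536 CPM) had UMIs in 46.0% and 39.6% of thinned members, against 0.405% and 0.202% of keratinocyte barcodes. The 16 stress and immediate early genes summed to 7650 CPM in members, 8419 CPM in other skin cells and 5053 CPM in free RNA. The 12 cell cycle genes were at 213 CPM against 617 CPM in other skin cells. Without subclusters 4 and 10 the cell cycle sum was 93 CPM.

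**Figure D3:**
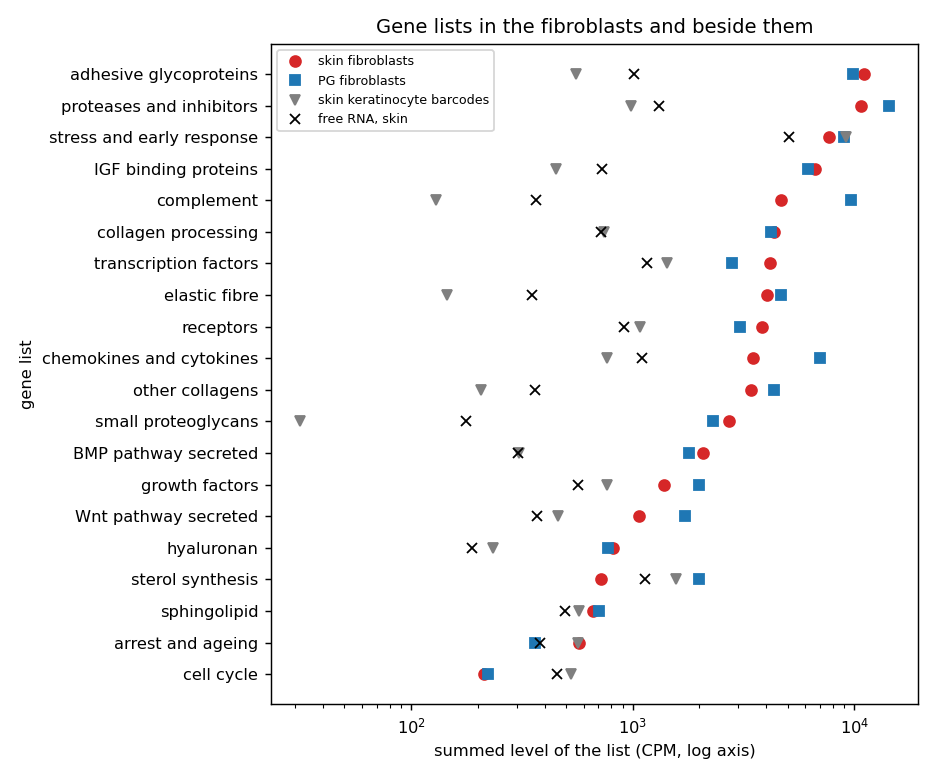
Summed level of each gene group list (y axis; marker lists of cell types left out) in CPM on a log axis, with 1 point per group of cells of 1 library. Of these lists, adhesive glycoproteins were highest in skin fibroblasts at 11046 CPM and cell cycle genes lowest at 213 CPM, and complement was higher in PG fibroblasts, at 9644 against 4649 CPM.

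The marker lists of fibroblast kinds were unequally represented in the members as a whole. The 8 adventitial genes summed to 6166 CPM, led by *Pi16* and *Ly6a* (1362 CPM), and the 8 reticular genes to 3991 CPM, led by *Mfap5* and *Mgp* (870 CPM). The 8 preadipocyte genes were at 1622 CPM, of which *Gpx3* made up 1177 CPM, while *Pparg*, the master regulator of fat cells, was at 0.821 CPM. The 8 dermal sheath genes stood at 628 CPM, the 9 papillary genes at 369 CPM and the 10 dermal papilla genes at 106 CPM, with *Prom1* and *Sox18* at 0 UMIs.

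Clustering of the 1100 members, made without the rule genes and keratins, gave 10 subclusters. Their leading genes describe the partition, since the same values made it. A list gene counted as a marker of a subcluster where it had a UMI in at least 10% of its thinned cells and stood at least 3-fold above the other members. The share of all genes past these limits is not given here. Counts of markers therefore describe the listed genes only and show no excess over other genes. A name with "-like" needed at least 3 markers of 1 kind of fibroblast. Subclusters 2 and 7 reached this, and because subcluster 7 did so for 2 kinds, only subcluster 2 is named. The outcome depends on the fold: at 2-fold, tried after the values had been seen, 4 subclusters reached 3 markers, with subclusters 5 (4 adventitial genes) and 6 (3 preadipocyte genes) added. Subcluster 2 then held 7 adventitial and 3 reticular genes, so that at 2-fold its name too would be lost. The borders were also not all stable, since subclusters 1 and 3 fell into 1 cluster under 5 of 8 other clustering settings and subclusters 8 and 9 under 3 of 8. Subcluster 10 joined subcluster 2 under 4 of 8.

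Subcluster 1, with 232 cells (21.1%) and a median of 1642 UMIs, was led by the hemicentin *Hmcn2*, *Sparcl1*, *G0s2*, the chemokine *Cxcl14* and the basement membrane chains *Col4a1* and *Col4a2*. *Cxcl14* was at 1215 CPM and at 210 CPM in the other members. Matrix Gla protein (*Mgp*), an inhibitor of calcification, was at 2534 and 530 CPM. Of the 24 other collagens, 7 were markers of it, and their list summed to 7040 CPM against 2664 CPM elsewhere. This was not particular to it: 6 of the 24 were markers of subcluster 7, *Col4a1*, *Col4a2* and *Col15a1* among them. The list sum there was 5758 against 3317 CPM.

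Subcluster 2, with 220 cells (20%), was adventitial-like, with 4 of 8 markers and a list sum of 12482 CPM against 4804 CPM in the other members. *Pi16* was at 4297 and 1278 CPM, the peptidase *Dpp4* at 787 and 242 CPM, *Anxa3* at 970 and 242 CPM, and the semaphorin *Sema3c* at 710 and 212 CPM. Its first leading gene was *Smpd3*, which encodes neutral sphingomyelinase 2 and releases ceramide from sphingomyelin. *Smpd3* had UMIs in 73.6% of thinned cells and stood at 2092 CPM, against 340 CPM elsewhere. *Mgp* was at 11.6 CPM there.

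Subcluster 5, with 132 cells (12%) and a median of 2199 UMIs, held adventitial genes as well, at 9799 CPM against 5672 CPM elsewhere, though none at 3-fold. *Pi16* was at 3634 CPM, *Dpp4* at 751 CPM and *Anxa3* at 854 CPM, and *Mgp* had no UMI among 291655. It was led by *Ptgs2*, and *Cxcl1*, *Cxcl2* and *Il6*, whose promoters are printed above, were among its 8 leading genes. *Ptgs2* was at 2332 CPM against 101 CPM elsewhere, *Cxcl1* at 3463 and 310, *Cxcl2* at 1670 and 87.7, *Il6* at 295 and 18.2, and *Has1* at 1382 and 144 CPM. The pentraxin *Ptx3* stood at 706 and 58.3 CPM. The chemokine and cytokine list summed to 9902 CPM against 2634 CPM, and the hyaluronan list to 2524 and 581 CPM. These list sums were not particular to it: they were 7794 and 2665 CPM in subcluster 6, and 4740 and 2436 CPM in subcluster 8. Of the single genes, *Cxcl1* and *Has1* were also markers of subcluster 6, where *Cxcl2* and *Il6* were past 2-fold. *Cxcl2* was also a marker of subcluster 10. The stress and immediate early list was at 11637 against 7107 CPM, with *Junb* past 3-fold and 7 of 16 genes past 2-fold, and over all members *Fos* was found in 36.2% of thinned cells with *Cxcl1* and 22.6% of the rest.

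Subcluster 6, with 99 cells (9%), had 11 of 16 stress and immediate early genes as markers, summed to 21362 CPM against 6535 CPM. *Fos* was at 2218 and 617 CPM and *Egr1* at 2092 and 511 CPM. Its chemokine and cytokine list was at 7794 against 3156 CPM, with *Ccl7* and *Cxcl1* as markers, and its hyaluronan list at 2665 against 663 CPM. Its leading genes were the aggrecanase *Adamts4*, the adhesion receptor *Icam1*, the hexokinase *Hk2* and the feedback regulators *Gadd45b* and *Socs3*.

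Subcluster 3, with 146 cells (13.3%), was led by the glypican *Gpc3* and the secreted glutathione peroxidase *Gpx3*. *Gpx3* was at 3959 and 828 CPM and *Gpc3* at 1115 and 204 CPM. Myocilin (*Myoc*), a secreted glycoprotein, was at 2072 and 442 CPM, and *Sfrp1*, *Sfrp2* and *Sfrp4* were markers as well. The muscle genes *Mylpf* and *Tnnc2* were also markers, and the muscle list was at 2796 CPM with the single muscle-rich cell and 396 CPM without it.

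Subcluster 7, with 52 cells (4.73%), held 5 of 9 papillary markers (*Crabp1*, *Col23a1*, *Apcdd1*, *Trps1* and *Wif1*), and the papillary list summed to 2688 CPM against 281 CPM in the other members. *Ndnf*, a secreted neurotrophic factor, had 49 UMIs there and none in the other members, which makes it at least 429-fold higher when the limit of 3 counts is set for these. *Wif1*, an extracellular Wnt inhibitor, was at 773 and 2.56 CPM and the fibrillar *Col11a1* at 314 and 1.28 CPM. The Wnt agonist *Rspo3* was at 728 and 32.0 CPM, and 7 of the 23 secreted Wnt genes were markers. It also carried 3 dermal sheath markers (*Mylk*, *Col11a1*, *Postn*), with a list sum of 2117 against 571 CPM, and 2 dermal papilla markers (*Lef1*, *Rspo3*), with a sum of 1759 against 42.6 CPM. Of other cell types it held the Schwann cell markers *S100b* and *Ncam1* (list sum 459 against 15.3 CPM) and the contractile gene *Myl9* at 123 against 18.8 CPM, whose part in this was not tested. *Corin*, known from the dermal papilla, was at 179 CPM and at 0 UMIs elsewhere.

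Subclusters 8 and 9, with 45 (4.09%) and 28 cells (2.55%), stood out in the rule genes themselves, with medians of 787 and 1281 UMIs of these per 10000. *Col1a1* reached 37601 and 55057 CPM and *Sparc* 18772 and 25348 CPM. In subcluster 9 the collagen processing genes *P4ha2*, *Serpinh1*, *Fkbp10* and *Adamts2* were markers, and the chaperone *Serpinh1* stood at 2157 CPM against 600 CPM. *Ctsk* and *Mmp14*, which degrade collagen, were markers of both, *Ctsk* at 2445 CPM in subcluster 8 and 2752 CPM in subcluster 9. The cell cycle inhibitor *Cdkn2a* stood at 131 CPM in subcluster 8 and 225 CPM in subcluster 9. The hyaluronan list was at 2436 CPM in subcluster 8 against 739 CPM elsewhere. Subcluster 8 also had 8 of 16 stress genes as markers, with *Fos* at 2932 CPM against 499 CPM in subcluster 9. The remaining 5 cells, subcluster 10, held 6 of 8 immune markers and *Cd74* at 6934 CPM.

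**Figure D4:**
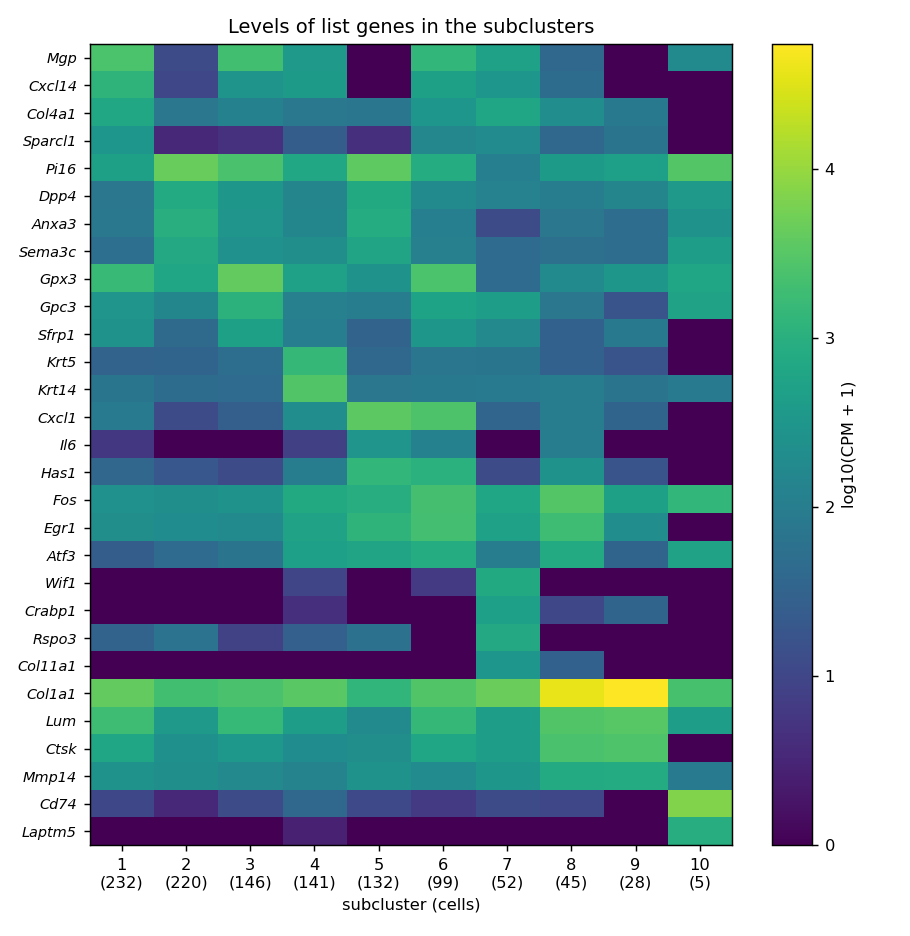
Level of list genes (y axis) in the 10 subclusters (x axis, cells in brackets), shown as log10(CPM + 1) by colour. *Pi16* and *Dpp4* were high in subclusters 2 and 5, *Cxcl1* in 5 and 6, *Wif1* and *Rspo3* in 7, *Col1a1* in 8 and 9, and keratins in 4.

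Cell by cell, and over pairs picked after their levels had been seen, genes of subclusters 1, 2 and 3 met to different degrees. After thinning to 1000 UMIs, 319 members had *Smpd3* and 309 had *Mgp*, and 20 had both. *Mgp* was thus found in 6.27% of cells with *Smpd3* and 37.0% of cells without it. The contrast was smaller with the other markers of subcluster 2: *Mgp* was in 14.1% of cells with *Dpp4* and 33.3% of the rest (42 cells with both), and in 23.7% of cells with *Pi16* and 33.3% of the rest (142 with both). *Smpd3* was found in 44.0% of the 598 cells with *Pi16* and in 11.2% of the rest, and *Gpx3* in 75.7% of cells with *Mgp* and 40.5% of the rest.

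Against the PG fibroblasts, which had a median of 1406 UMIs, 3256 genes with at least 50 CPM in either group were compared. Of these, 282 (8.66%) were at least 2-fold higher in skin and 360 (11.1%) at least 2-fold lower, and the median log2 ratio was 0.03. Among cells of 1000 genes and 2000 UMIs or more, the counts were 559 and 573. This filter also changed which cells were compared. It left 439 skin members, 108 of them among the 141 of the keratin-led subcluster 4. In PG fibroblasts the 75th percentile was 1795 UMIs, so most of them were left out. The keratins of members with under 1% keratin stood at 6.78% of their free RNA level in skin and at 31.2% in PG. Other lists lay lower against free RNA in PG, so 31.2% is too high for them. Sterol genes were at 1997 CPM in PG fibroblasts and 17274 CPM in PG free RNA, and skeletal muscle genes at 8.79 and 139 CPM. Whether free RNA weighed more in PG is therefore not settled. Because each tissue is 1 library, these are counts past a fold and not of tested genes. Among genes past 100 CPM in skin fibroblasts, with UMIs in 10% of thinned cells and at least 2 times the free RNA level, the highest ratio was that of *Gm26771* at 151 and 2.64 CPM. *Myoc* (chr1:162639155-162649693 on the plus strand of GRCm38, GENCODE) was at 624 CPM (593 to 656) in skin and 29.9 CPM (20.7 to 41.8) in PG fibroblasts, a log2 ratio of 4.38 (95% interval 3.90 to 4.92). *Angptl1* was at 138 and 7.91 CPM, *Aspn*, a small leucine-rich proteoglycan, at 380 and 49.2 CPM, and the BMP inhibitor *Chrdl1* at 149 and 21.1 CPM. *Smpd3* (chr8:106252548-106337988, minus strand) was at 651 CPM (619 to 684) and 94.0 CPM (77.1 to 114), a log2 ratio of 2.79 (2.51 to 3.09). For *Myoc* and *Smpd3* the intervals of the libraries were well apart. Further down this order, *Dpp4* was at 338 and 80.8 CPM. *Col14a1*, which binds collagen fibrils, was at 482 and 156 CPM, and *Gas6*, a ligand of TAM receptors, at 603 and 170 CPM.

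Lower in skin were *Gstp1*, a glutathione transferase, at 3.69 CPM against 229 CPM in PG fibroblasts, and *Sparcl1* at 81.3 and 830 CPM, a log2 ratio of -3.35 (-3.58 to -3.13). *Hsd11b1*, which regenerates active glucocorticoid, was at 69.4 and 489 CPM. *Sult1e1*, the oestrogen sulfotransferase, was at 65.3 and 345 CPM, ceruloplasmin (*Cp*) at 59.9 and 354 CPM, and *Crabp1*, a retinoic acid binding protein, at 19.3 and 199 CPM. The log2 ratios of *Myoc* and *Sparcl1* were 4.45 and -3.32 when doublet-like cells were left out of both libraries.

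Part of these ratios was also present in keratinocyte barcodes of the same libraries. Of the 20 highest genes in skin over PG, 9 reached 10 CPM in keratinocyte barcodes, and 4 of these were at least 2-fold higher in skin there too. Of the 12 highest in PG over skin, 6 reached this level and 6 were at least 2-fold higher in PG. *Gstp1* was at 3.29 and 188 CPM in the keratinocyte barcodes of skin and PG, and *Malat1*, at 31382 CPM in skin and 3805 CPM in PG fibroblasts, was at 24469 and 1436 CPM. Of the genes given above, *Aspn* (14.1 and 0.0802 CPM in the keratinocyte barcodes of skin and PG), *Hsd11b1* (0.483 and 35.5 CPM) and *Cp* (2.37 and 31.7 CPM) also differed there in the same direction. *Myoc* (1.84 and 0.160 CPM), *Smpd3* (7.25 and 0.0802), *Dpp4* (7.97 and 4.81) and *Sparcl1* (0.821 and 4.57 CPM) stayed under 10 CPM in the keratinocyte barcodes of both libraries. At these low levels they too differed in the same direction as in fibroblasts. Not all genes given above did: *Gas6* was less than 2-fold apart, at 89.7 and 78.5 CPM in the keratinocyte barcodes of skin and PG. *Col14a1* (1.55 and 2.25 CPM) and *Crabp1* (2.51 and 1.52 CPM), also under 10 CPM, went the other way.

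The matrix lists hold few genes each, and no difference between lists was tested. Among cells of 1000 genes and 2000 UMIs or more, the medians of elastic fibre genes and collagen processing turned positive, to 0.02 and 0.43, so neither direction is firm. A gene that reaches 50 CPM in 1 group alone tends to differ by this choice, so the counts are over genes that reached it in both groups, while the medians are over all compared. Of all 2269 genes past 50 CPM in both groups, 4.05% were at least 2-fold higher in skin and 6.43% lower. Of 15 elastic fibre genes, 0 were higher in skin and 1 was lower (median log2 ratio of 17 compared -0.29, against 0.03 over all genes). Of 17 adhesive glycoproteins, 0 were higher and 3 lower (median of 19 compared 0.13). Collagen processing had 2 higher and 2 lower of 13 (median of 15 compared -0.13). Of 12 other collagens, 1 was higher, *Col14a1*, and 4 were lower (median of 14 compared -0.48), with *Col6a2* at 280 against 810 CPM. In small proteoglycans 2 of 5 were higher and 1 lower (median of 6 compared 0.62), with *Ogn* at 1439 and 555 CPM and *Bgn* at 396 and 1288 CPM.

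In the complement, chemokine, sterol and protease lists, more genes were lower than higher in skin. The filter to cells of 1000 genes and 2000 UMIs or more, however, left other cells to compare (108 of 439 skin members were of subcluster 4). Under it, the medians of 6 of the lists that follow turned positive: chemokines and cytokines to 0.51, proteases to 0.10, growth factors to 0.41, IGF binding proteins to 0.30, secreted BMP genes to 0.98 and stress genes to 1.09. Of 10 complement genes past 50 CPM in both groups, 0 were higher and 5 lower (median of 12 compared -0.78), and *C3* stood at 1170 CPM against 3543 CPM. Of 12 chemokines and cytokines, 2 were higher and 5 lower (median of 13 compared -0.61), with *Ccl11* at 258 and 785 CPM and *Cxcl2* at 277 and 129 CPM. In the sterol synthesis list 0 of 5 were higher and 2 lower (median of 9 compared -0.97). The isomerase *Idi1* of that list was at 53.8 CPM against 845 CPM, and in keratinocyte barcodes it was at 107 and 2366 CPM. The sterol list was at 721 CPM in skin and 1997 CPM in PG fibroblasts, but at 1142 and 17274 CPM in the free RNA of these libraries. After free RNA was subtracted at the keratin shares, 690 CPM were left in skin and 403 CPM in PG fibroblasts. In PG, however, the part to subtract was 5386 CPM, more than the list held, and 9 of its genes ended at 0. This subtraction therefore cannot decide whether the lower level in skin holds. Of 16 proteases and inhibitors 0 were higher and 4 lower (median of 17 compared -0.37), and of 6 growth factors 0 were higher and 1 lower (median of 12 compared -0.30). Of 4 secreted Wnt genes 0 were higher and 2 lower (median of 5 compared -0.66), and of 4 secreted BMP genes 0 were higher and 1 lower (median of 7 compared -0.14). Of 5 IGF binding proteins 1 was higher and 2 lower (median of 6 compared -0.08). Transcription factors had 2 higher and 0 lower of 13 (median of 15 compared 0.40) and receptors 1 and 0 of 17 (median of 22 compared 0.25). Of 3 sphingolipid genes, 0 were higher and 0 lower (median of 4 compared -0.20, and 0.18 without subclusters 4 and 10), and *Smpd3*, which is more than 2-fold higher in skin, is not on that list. Of 16 stress genes, likewise, 0 were higher and 0 lower (median -0.39). Without doublet-like cells, however, *Btg2* (115 against 298 CPM), *Dnajb1* (94.5 and 231), *Zfp36* (434 and 925) and *Hspa1b* (497 and 1027 CPM) were past 2-fold lower in skin. Of the adventitial list, 2 of 8 were higher (*Pi16* and *Dpp4*) and 0 lower (median 0.76).

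**Figure D5:**
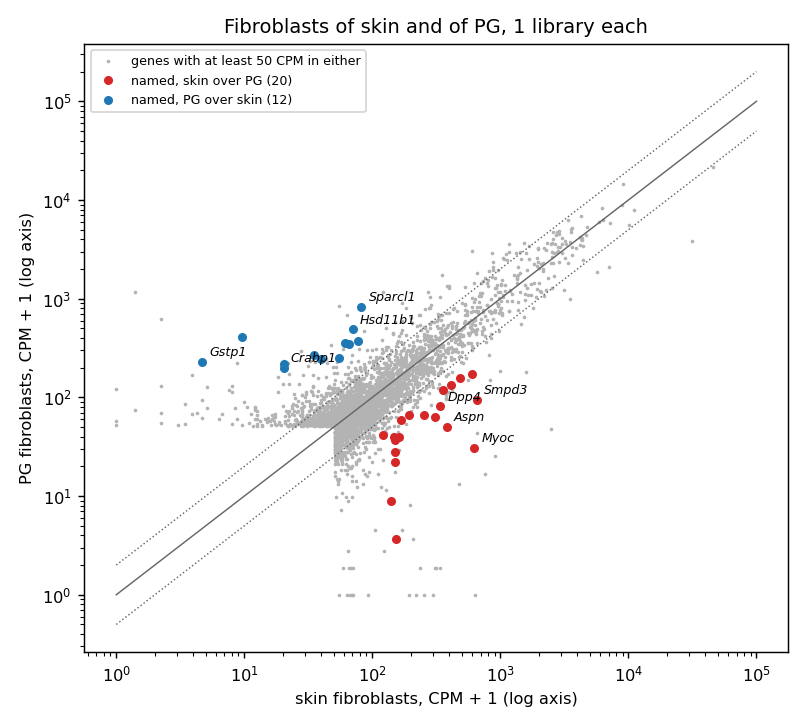
Level of each gene with at least 50 CPM in either group, in CPM + 1 on log axes, in skin fibroblasts (x axis) and PG fibroblasts (y axis), with lines at equality and at 2-fold. The 20 named genes in red, such as *Myoc* at 624 and 29.9 CPM, lie on the skin side and the 12 in blue, such as *Sparcl1* at 81.3 and 830 CPM, on the PG side.

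The nearest stromal cells of the skin library were the 47 contractile cells (UMIs in at least 3 of the 5 contractile genes), with a median of 3297 UMIs. They also held 5320 CPM of *Fabp4*, which adipocytes and capillary endothelium express, and 215 CPM of the 6 endothelial genes, whose part in the ratios was not tested. Of 3806 genes with at least 50 CPM in either group, 618 (16.2%) were at least 2-fold higher in fibroblasts and 733 (19.3%) at least 2-fold lower, with a median log2 ratio of -0.28. Centred on this median, the counts were 770 and 509, so the split between higher and lower depends on the scale. With cells thinned to 1000 UMIs, 628 were higher and 1181 lower. *Igfbp6* was at 2079 CPM in fibroblasts and 19.0 CPM (3 UMIs) in contractile cells, a log2 ratio of 6.78 (5.23 to 9.06). *Pi16* and *C3* had no UMI in contractile cells, and at the limit of 3 counts were at least 95.7-fold and 61.7-fold higher in fibroblasts. *Clec3b* was at 2816 and 37.9 CPM.

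Over all genes, 16.2% were higher and 19.3% lower, but many list genes reached 50 CPM in fibroblasts alone, and such genes tend to differ by this choice, so that their counts support nothing. Of the 2157 genes past 50 CPM in both groups, 7.65% were higher and 7.42% lower in fibroblasts. Of 11 complement genes compared, 8 were of this kind, and the 3 that reached 50 CPM in both groups were all at least 2-fold higher in fibroblasts. Of 8 adventitial genes, 4 reached it in both groups, and these 4 were higher. Of 15 elastic fibre genes, 11 passed through the fibroblasts alone, and of the 4 that passed in both groups 0 were higher and 0 lower. Of 12 chemokines and cytokines, 3 passed in both groups, with 1 higher and 1 lower. The basement membrane chains were lower in fibroblasts, *Col4a1* at 223 CPM in fibroblasts and 512 CPM in contractile cells and *Col4a2* at 138 and 348 CPM. All 16 stress genes passed in both groups, with 0 higher and 1 lower (median log2 ratio -0.15, against -0.28 over all genes).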

How the data were processed

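Single-cell 3′ libraries were made from dissociated back skin and PGs, 1 per tissue, from the pooled cells of 3 mice. The authors deposited raw UMI counts per gene and barcode as written by Cell Ranger 4, and the submitters' processing notes name mm10. The annotation release is not given in the sources used here. The matrices hold every barcode of the barcode list, without normalization or a filter on cells. Depth per library is given in the report.

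The filters and the member rule are stated there. For each group of cells, UMIs were added up per gene and expressed as CPM. Ratios have exact binomial, levels exact Poisson and shares exact Clopper-Pearson 95% intervals, and a group without UMIs was set to 3 counts. With 1 library per group no test was made and no p-value computed. Gene positions are from GENCODE on GRCm38, the assembly of mm10. Genes were called past 2-fold, among those with at least 50 CPM in either group. Keratinocyte barcodes had UMIs in at least 3 of the 9 keratinocyte genes, at least 20 of these per 10000, and neither 3 rule genes, 3 contractile genes nor *Ptprc*.

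Members were clustered on CP10k log values with 2000 variable genes (rule genes, keratins, mitochondrial and ribosomal protein genes left out), 20 principal components, 15 neighbours and Leiden at resolution 0.5 (leidenalg 0.10.2, igraph 0.11.9). Doublets were scored by simulated neighbours and not removed: the highest scores, 0.8% of cells per 1000 cells, are called doublet-like. Python 3.11.15, numpy 2.4.6, scipy 1.17.1 and scikit-learn 1.9.0 were used, and scripts were tested on simulated data.

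Named genes were the members of the lists, the 20 highest genes, the 20 highest and 12 lowest ratios to PG, the 12 highest to contractile cells (at least 100 CPM, UMIs in 10% of thinned cells and 2 times the free RNA), and 8 per subcluster. Genes highest against the rest of skin were added after the values had been seen. The members and the lists were chosen with earlier results of these data known. The marker limits of the subclusters, the limit of 10 CPM in keratinocyte barcodes, the gene pairs and the single-cell checks were chosen after the values had been seen. *Ccl19*, whose symbol is carried by several identifiers, was left out of the lists. Promoters came from RefSeq GRCm38.p6. Alternatives changed the filters, the rule, the scaling, the doublet and free RNA handling, and the clustering. One gene of the lists is not reported here.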

Additional observations from a re-analysis of the deposited data

How the results depend on the processing

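The library of each tissue is 1 pool, so the limits here are of processing and counting, not of animals. The share of fibroblasts was 12.4%, and 10.7% with at least 4 rule genes, 13.2% with at most 5% mitochondrial UMIs, 11.2% without members of at least 1% keratin and 10.7% without subclusters 4 and 10 (an alternative chosen after seeing the data). With at least 1000 genes and 2000 UMIs it was 9.60% (439 cells). The summed level of the other collagens, 3407 CPM, became 3576 CPM with a sum of at least 40, 3625 with at least 4 rule genes, 3072 with 1000 genes and 2000 UMIs, 3861 without doublet-like cells, 3854 without members of 1% keratin, 3726 as a mean over cells, 3729 after thinning, 3626 after subtracting free RNA and 3971 CPM without subclusters 4 and 10. Genes past 2-fold between skin and PG, 282 higher and 360 lower, became 559 and 573 with 1000 genes and 2000 UMIs, 1533 and 1988 with no filter beyond 3 UMIs, 74 and 128 at 200 CPM or more, and 69 and 98 at 4-fold, and were 300 and 390 without subclusters 4 and 10. Against contractile cells, 618 and 733 became 1362 and 4478 with no filter beyond 3 UMIs, 190 and 135 at 200 CPM or more and 298 and 277 at 4-fold, and 1181 were lower after thinning. The number of subclusters, 10, fell to 5 with 1000 genes and 2000 UMIs and was 7 to 12 under the other clustering settings. Other filters let in other genes or cells by construction, and beyond this the cause was not tested. None of the leading ratios to PG and to contractile cells, the ones recomputed gene by gene, changed sign. List medians between skin and PG did: 8 with 1000 genes and 2000 UMIs (given in the report). Without subclusters 4 and 10, 4 did (collagen processing 0.13, IGF binding proteins 0.14, secreted BMP genes 0.10, sphingolipid 0.18). Without members of 1% keratin, 3 did (collagen processing 0.09, IGF binding proteins 0.03, sphingolipid 0.06). After subtracting free RNA, 2 did, adhesive glycoproteins (0.13 to -0.17) and sterol synthesis (-0.97 to 7.99). The sterol value is not a usable ratio, since 9 genes of that list were at 0 in PG after the subtraction. Under some other settings, 1 or 2 medians changed sign. Of the leading ratios to PG, 421 values under the alternatives stayed within their interval and 27 moved, and of those to contractile cells 160 stayed and 8 moved. Subcluster 2 kept at least 96.8% of its cells together under every clustering setting, subcluster 7 at least 61.5% and subcluster 10 at least 40%. Subclusters 1 and 3 fell into 1 cluster under 5 of 8 settings, 2 and 10 under 4, 8 and 9 under 3 and 6 and 8 under 2. With 1000 genes and 2000 UMIs, most cells of each of subclusters 6 to 10 fell into 1 cluster of 71 cells. No paired analysis was possible because each group has 1 sample.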

Other observations

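Among the receptors of skin fibroblasts, the oestrogen receptor *Esr1* was at 62.8 CPM in skin and 27.2 CPM in PG fibroblasts. *Tgfbr2*, the type II TGF-β receptor, was the highest of the 27 receptors at 452 CPM, and the collagen receptor *Ddr2* was at 322 CPM.

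Among 9 genes of arrest and ageing, the cell cycle inhibitor *Cdkn1c* was highest at 211 CPM. *Cdkn2a* had 58 UMIs (23.8 CPM) in skin fibroblasts and none in PG fibroblasts. The complement C1q-related *C1qtnf3* had 170 UMIs in skin fibroblasts (69.8 CPM) and 1 UMI (0.879 CPM) in PG fibroblasts, a log2 ratio of 6.31 (3.81 to 11.62).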
